A study of Saccharomyces cerevisiae with 4 samples.

Results

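The genes described here encode 10 proteins that build silent chromatin at yeast telomeres and at the silent mating-type loci: SIR1, SIR2, SIR3, SIR4, SAS2, SAS4, SAS5, RAP1, RIF1 and RIF2. They were chosen by name, as every probe set that the platform's table pairs with one of these symbols, which gave 11 probe sets of 9335 on the array and 10 genes of the 5656 with a probe set of their own. SIR1 had 2 probe sets and each other gene had 1. Transcript levels were measured with one-colour oligonucleotide arrays in budding yeast (Saccharomyces cerevisiae). The wild-type strain (n = 2 arrays) was compared with a strain in which 8 lysines of histone H3 were replaced by glycine, K4, K9, K14, K18, K23, K27, K36 and K79 (n = 2 arrays). Cells of both strains grew in YPD, a rich glucose medium, to mid-log phase at an OD600 between 0.5 and 0.7. Mating type, ploidy and further alleles are not given in the labels for either strain, so effects of the H3 change and of any other strain difference cannot be told apart. Whether replicate arrays came from separate cultures is not stated either, and p-values here reflect only how far these 4 arrays differ, which may be technical.

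Silent chromatin forms in steps. Rap1, together with Abf1 and the origin recognition complex, binds the silencers beside the silent mating cassettes, and Rap1 also binds the telomeric repeats. These proteins recruit Sir1 (at the mating cassettes), Sir4 and Sir3, and the Sir2 deacetylase removes acetyl groups from H4 lysine 16, which lets more Sir3 and Sir4 bind. The SAS complex, in which Sas2 is the acetyltransferase and Sas4 and Sas5 are its partners, acetylates that same lysine outside silent regions and limits their spread. Rif1 and Rif2 bind Rap1 at telomeres, where they compete with Sir proteins and restrain telomere lengthening. Sir3 and the H3 residue K79 are linked as well, since Sir3 binds nucleosomes whose K79 is not methylated.

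Of these genes 1 rose and 1 fell in the mutant. The mean signal of SAS4 in the mutant was 2.62 times that of wild type, and that of RAP1 was 0.667 times the wild-type mean. None of SIR1, SIR2, SIR3, SAS2 and RIF1, which were tested, passed in either direction, and the dimmer genes SIR4, SAS5 and RIF2 did not pass in a fit with no filter on signal. At an unadjusted p under 0.05 in limma 0 of these 5 tested genes passed, and in the fit with no filter 1 of the 8 uncalled genes, SAS5. Among all uncalled genes 573 of 3141 tested ones had such a p, and 743 of 4077 with no filter. Genes were tested with limma on log2(signal + 16), with Benjamini-Hochberg adjustment over 4476 genes bright enough to test (a geometric mean of signal + 16 that corresponds to a signal of 25.1 or more), and a gene was said to rise or fall where its adjusted p was under 0.05. Fold changes are on this scale, where the added 16 makes those of dim genes smaller than the ratio of their signals. In this fit 29.8% of all tested genes were called, 14.3% higher and 15.5% lower, and 2 of the 7 tested silencing genes is a share close to that background. With no filter, 27.9% of 5656 genes were called (14.8% higher and 13.1% lower), and 2 of the 10 silencing genes. Their median log2 fold change was 0.15 for the 7 tested genes and 0.13 for all 10, against -0.03 for all tested genes and -0.01 for all genes.

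The log2 signals of the tested genes correlated at 0.991 between the wild-type arrays and at 0.989 between the mutant arrays, across genes, which are not independent replicates. All arrays had the same trimmed mean, 125.1, so a change is relative to that scaling. The hybridization controls had geometric means of 174 and 201 on the mutant arrays and 138 and 141 on those of wild type. When arrays were scaled to these controls, the all-gene median in the fit with no filter went from -0.01 to -0.33, and higher calls made up 7.61% of all calls among tested genes instead of 48.0%. The signs of small changes therefore rest on the scaling: 7 of the 10 silencing genes had values above 0 as deposited and 1 of them after control scaling. Relative to the median of all genes, 7 were above and 3 below with either scaling. Control scaling multiplies all signals of an array by the same factor, so this likeness was nearly fixed in advance.

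**Figure D1:**
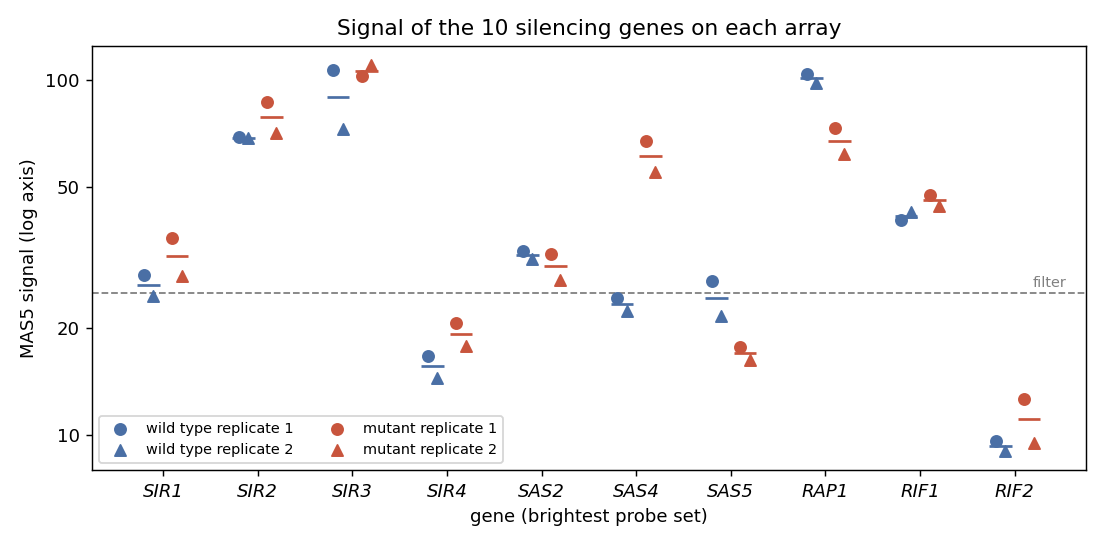
MAS5 signal, on a log axis, of the brightest probe set of each silencing gene on each of the 4 arrays; horizontal bars are group means and the dashed line is the signal of 25.1 at which the filter lay. The mutant points of SAS4, at 55.0 and 67.5, lie far above its wild-type points, those of RAP1 lie below, and the wild-type points of SIR3 lie far apart.

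SAS4 (YDR181C), the subunit that Sas2 needs for its acetyltransferase activity, gave signals of 24.3 and 22.4 on the wild-type arrays and 67.5 and 55.0 on the mutant arrays. Both mutant arrays lay well above both wild-type arrays, and the gap was larger than the spread within either group. The mean was 23.4 ± 1.34 in wild type and 61.2 ± 8.84 in the mutant (SD, n = 2 each), for a log2 fold change of 0.97 ± 0.119 (SE) with a limma adjusted p of 0.000527. This was the 104th highest change of the 4476 tested genes. The wild-type mean was under the filter, so SAS4 was tested only because of its mutant signal. In the fit with no filter, which does not depend on that, its adjusted p was 0.000945.

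SAS2 (YMR127C), the catalytic subunit, gave 32.9 and 31.4 for wild type, with 32.4 and 27.3 for the mutant, so the groups overlapped. Its log2 fold change was -0.07 with a 95% interval from -0.32 to 0.18. After control scaling SAS2 gave -0.35 and passed (adjusted p = 0.0465). The median of tested genes was -0.39 there and 2490 of 4475 were called lower, so SAS2 did not stand below the typical gene. SAS5 (YOR213C), the third subunit, gave 27.1 and 21.6 in wild type against 17.7 and 16.3 in the mutant. Its mutant signals were both below wild type, but the gene was too dim for the main test. With no filter SAS5 had a log2 fold change of -0.29 ± 0.106 (SE) and a limma adjusted p of 0.0756. This p became 0.0349 after median centring, 0.0285 after quantile normalization and 0.000740 after control scaling. Control scaling gave SAS5 -0.52, where the median of all genes was -0.33. Relative to that median SAS5 lay at -0.19, against -0.28 as deposited, so the smaller p is not read as stronger evidence. With 1 array left out SAS5 passed in 0 of 4 fits, with values from -0.39 to -0.19 (adjusted p from 0.0776 to 0.281). The transcripts for the 3 subunits thus had values of 0.97, -0.07 and -0.29. The difference between subunits was not tested.

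RAP1 (YNL216W), the DNA-binding protein of silencers and telomeric repeats and also an activator of many growth genes, gave 104.3 and 98.4 for wild type, with 73.2 and 62.0 for the mutant. All wild-type signals were above all mutant signals. Its mean was 101.3 ± 4.17 in wild type and 67.6 ± 7.92 in the mutant (SD, n = 2 each), for a log2 fold change of -0.49 ± 0.111 (SE) with a limma adjusted p of 0.0111. The RAP1 call did not survive the removal of wild-type replicate 1 (log2 fold change -0.46, adjusted p = 0.0678) or of mutant replicate 2 (-0.40, adjusted p = 0.0847), while SAS4 passed without any 1 array (0.85 to 1.09, adjusted p up to 0.0143). After control scaling RAP1 gave -0.84 ± 0.164 (SE) and still passed (limma adjusted p = 3.12e-06). The SE was larger than before and the median of tested genes was -0.39 there, so the smaller p is not read as stronger evidence.

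**Figure D2:**
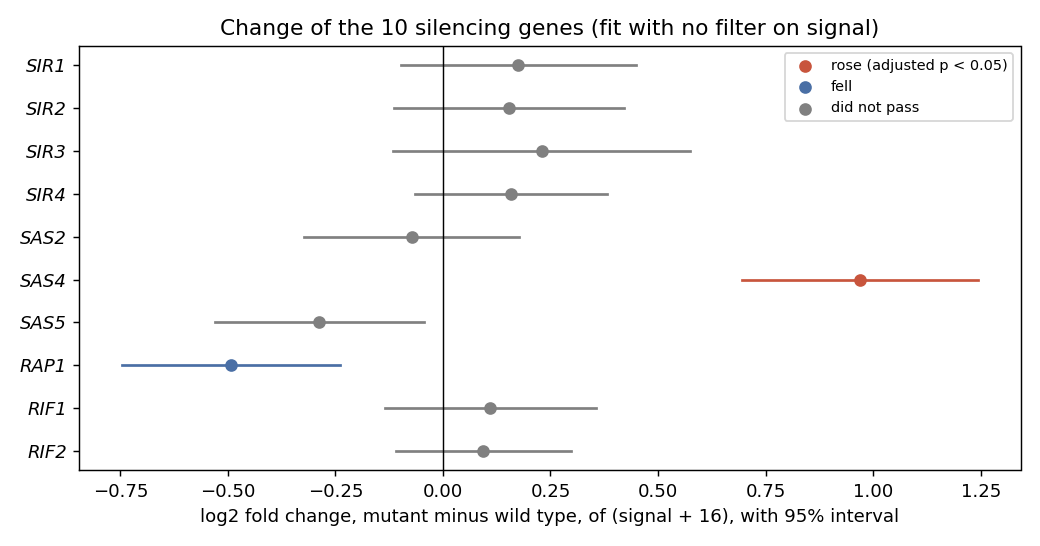
Log2 fold change of each silencing gene, mutant minus wild type, on the log2(signal + 16) scale, with 95% intervals from the limma fit with no filter on signal; red marks a gene that rose, blue one that fell and grey one that did not pass. SAS4 lies at 0.97 and RAP1 at -0.49, and the intervals of the 4 SIR genes all include 0.

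The genes of the SIR complex did not pass. SIR2 (YDL042C), the NAD-dependent deacetylase, gave 69.2 and 68.7 in wild type against 86.7 and 70.9 in the mutant. The mutant arrays were both higher, mutant replicate 2 by little, and the log2 fold change was 0.15 with a 95% interval from -0.11 to 0.42 (limma adjusted p = 0.347). SIR3 (YLR442C), which binds nucleosomes and spreads along them, gave 106.8 and 72.9 for wild type, with 102.8 and 110.3 for the mutant. Its wild-type arrays differed by 0.47 on the log2 scale, more than its fold change of 0.23 (interval -0.11 to 0.56), and the result turned on which of them was used. Without wild-type replicate 1 SIR3 gave 0.46 with an adjusted p of 0.0439, and without wild-type replicate 2 it gave -0.0036 with an adjusted p of 0.983.

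SIR4 (YDR227W), the scaffold that joins Sir2 and Sir3 to Rap1, gave 16.7 and 14.5 in wild type against 20.7 and 17.8 in the mutant, all below the filter. With no filter its log2 fold change was 0.16 with an interval from -0.07 to 0.38. SIR1 (YKR101W), which links the origin recognition complex to Sir4 at the silent mating cassettes, gave 28.2 and 24.6 for wild type, with 35.9 and 28.1 for the mutant on its brighter probe set, and the groups overlapped. Its log2 fold change was 0.18 with an interval from -0.10 to 0.45. The dimmer SIR1 probe set gave 6.1 and 7.2 against 8.4 and 8.7, near the floor. With 1 array left out, SIR2 ranged from 0.033 to 0.27 and SIR1 from 0.058 to 0.29, and neither passed. None of the 4 intervals reached a log2 fold change of 1 in either direction. Because a constant was added to each signal, that value stands for a larger change in signal, most so for the dim SIR1 and SIR4. The SIR4 estimate could not have fallen that far, as its wild-type signals were close to the constant. For SIR4 the downward outcome was thus fixed in advance, and no conclusion is drawn from it. All 4 SIR values were above 0 as deposited and below 0 after control scaling (-0.092 for SIR1, -0.19 for SIR2, -0.13 for SIR3 and -0.059 for SIR4).

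The Rap1-interacting factors showed small differences. RIF1 (YBR275C), which also delays origin firing, gave 40.3 and 42.4 in wild type against 47.6 and 44.2 in the mutant, with a log2 fold change of 0.11 (interval -0.13 to 0.35, limma adjusted p = 0.466). RIF2 (YLR453C), the other Rap1 partner at telomeres, gave 9.6 and 9.0 against 12.6 and 9.5, near the floor of the array, with 0.09 (interval -0.11 to 0.30) in the fit with no filter. Across the 10 genes the groups did not overlap in 6, of which 4 were higher and 2 lower in the mutant. Among all 5656 genes such separation held for 66.1%, with 33% higher and 33.2% lower.

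The silencing genes SIR2, SIR4 and SAS4 are read by probe sets numbered from 5600 to just under 6700, a stretch in which the mutant arrays disagreed more than elsewhere. Among 650 tested genes in this stretch the SD of the log2 difference between the mutant arrays was 0.351, against 0.164 for the 3826 others, while the wild-type arrays gave 0.168 and 0.191. The mutant arrays of SAS4 differed by 0.23 on the log2 scale, those of SIR2 by 0.24 and those of SIR4 by 0.12, all inside the spread of the stretch. The mutant array on which SAS4 lay nearer to wild type, replicate 2, gave a log2 fold change of 0.85 by itself, and replicate 1 gave 1.09 by itself. The share of genes called was 29.8% inside the stretch and 29.8% outside it. The directions differed, with 76 of 194 calls higher inside and 565 of 1141 higher outside. Probe set numbers here follow the order of the genes along the chromosome, and 9 other genes are read within 6 numbers of SAS4. Of these 1 was called, SDH4, a succinate dehydrogenase gene, at 0.50. The other neighbours lay between -0.10 and 0.31, and the flanking genes SCC2 and CDC1 gave -0.08 and 0.14. Around RAP1, 0 of 12 such neighbours were called in the limma fit with no filter and 1 had an unadjusted p under 0.05, with values from -0.32 to 0.13. In that fit 2322 of all 5656 genes had such an unadjusted p.

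**Figure D3:**
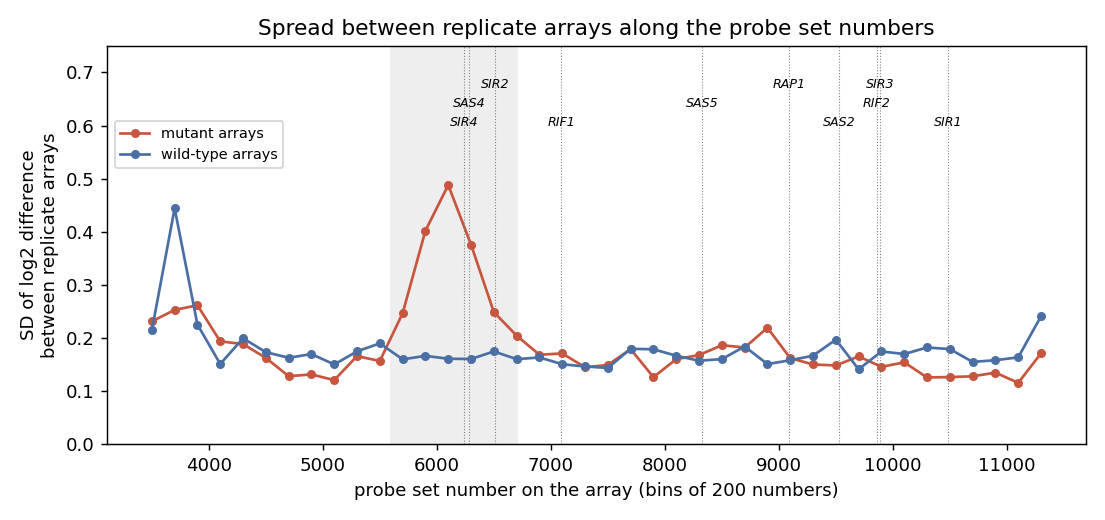
SD of the log2 difference between the 2 arrays of each strain for tested genes in bins of 200 probe set numbers (bins with at least 20 genes), with the silencing genes marked at the numbers of their probe sets and the stretch from 5600 to 6700 shaded. The mutant line rises inside the stretch, where SIR4, SAS4 and SIR2 lie.

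**Figure D4:**
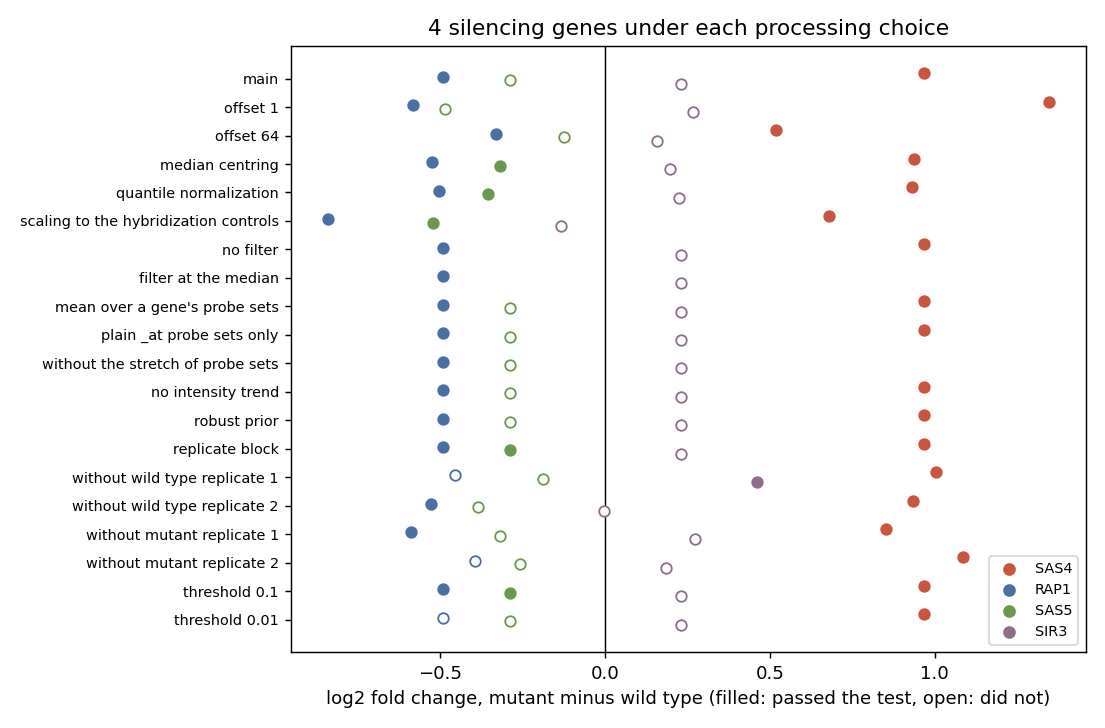
Log2 fold change, mutant minus wild type, of SAS4, RAP1, SAS5 and SIR3 under each processing choice, filled where the gene passed the test and open where it did not; the values of SAS5 come from fits with no filter on signal. SAS4 stayed between 0.52 and 1.35, RAP1 lost its call in 3 settings, and SIR3 moved between -0.13 and 0.46.

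Some of these genes have a duplicate copy from the ancestral genome duplication that took up another role. HST1, the paralog of SIR2 that represses genes of NAD synthesis and of sporulation with Sum1, gave 225.5 and 264.9 for wild type, with 234.1 and 247.1 for the mutant, and its log2 fold change was -0.02 (interval -0.26 to 0.21) beside 0.15 for SIR2. ORC1, the paralog of SIR3 in the origin recognition complex, gave -0.17 (interval -0.45 to 0.11) beside 0.23. ORC4, the paralog of RIF2, gave -0.28 (interval -0.53 to -0.03, limma adjusted p = 0.0843), with mutant signals of 34.3 and 34.1 below wild-type signals of 41.8 and 48.3. Of these 3 paralogs 0 passed in limma and 1, ORC4, had an unadjusted p under 0.05, as did 1908 of all 4476 tested genes. The difference within each pair was not tested. After control scaling all 3 passed as lower: HST1 gave -0.42 (adjusted p = 0.0154), ORC1 -0.51 (adjusted p = 0.00476) and ORC4 -0.58 (adjusted p = 0.00110). Under that scaling 2490 of 4475 tested genes were called lower and the median of tested genes was -0.39, close to the value of HST1.

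Proteins that work beside the Sir, Sas and Rap1 proteins were followed in 10 further lists of 88 genes, of which 70 were tested, 7 rose and 13 fell (28.6% called, against 29.8% of all tested genes). Their median log2 fold change was -0.02, against -0.03. Among the silencer-binding proteins 0 of 6 tested rose and 1 fell. This was ABF1, the other general factor that binds silencers with Rap1, from 84.0 and 61.5 to 43.2 and 42.0, a log2 fold change of -0.59 ± 0.135 (SE, limma adjusted p = 0.0120). The mutant arrays agreed closely while the wild-type arrays differed, and without wild-type replicate 1 the ABF1 call was lost (-0.40, adjusted p = 0.0664). Genes for 5 subunits of the origin recognition complex were tested in limma and 0 passed, with 2 at an unadjusted p under 0.05 and values from -0.28 to 0.01. Such an unadjusted p was found for 1908 of all 4476 tested genes.

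Genes that supply NAD, the cosubstrate of Sir2, held 9 of the 20 calls in these lists. Of 11 tested, 3 rose, 6 fell and 2 did not pass, with a median of -0.31. Thus 81.8% were called, against 29.8% of all tested genes (14.3% higher and 15.5% lower). The lists were chosen with earlier results of these data known, so no conclusion is drawn from this share. BNA4 and BNA2, enzymes of NAD synthesis from tryptophan, rose from 57.9 and 52.4 to 180.5 and 173.0 and from 35.6 and 33.3 to 106.2 and 101.4 (log2 fold changes 1.44 and 1.25). TNA1, the nicotinic acid transporter, rose by 0.99. BNA1, another enzyme of that pathway, fell from 336.1 and 310.5 to 179.5 and 178.3, a log2 fold change of -0.80. NPT1, the salvage enzyme whose loss is known to weaken silencing, was named after its values were seen, and it fell from 358.2 and 300.6 to 177.3 and 172.5, a log2 fold change of -0.85 ± 0.105 (SE, limma adjusted p = 0.000534). The groups of all 5 genes were far apart, and their calls held without any 1 array.

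Telomerase and capping genes gave 2 that rose, 2 that fell and 6 that did not pass among 10 tested. Over all tested genes 14.3% were called higher and 15.5% lower. TEL1, the kinase that promotes telomere lengthening and whose recruitment Rif2 restrains, rose from 56.9 and 51.0 to 109.4 and 117.7, with a log2 fold change of 0.89 ± 0.107 (SE, limma adjusted p = 0.000460). RAD50, a member of the complex that brings Tel1 to DNA ends, rose by 0.39, but it did not pass in 3 of 4 leave-one-out fits (adjusted p up to 0.162) or after control scaling (0.08, adjusted p = 0.690). EST3, a telomerase subunit, fell from 61.3 and 69.6 to 38.5 and 38.3 (log2 fold change -0.58), and TLC1, the telomerase RNA, fell from 131.9 and 124.6 to 81.9 and 88.8 (-0.51). Each fit took the brightest TLC1 probe set anew. Without mutant replicate 2, and also without wild-type replicate 2, that was a different probe set from the one given here. In these fits TLC1 gave -0.49 without a call and -0.70.

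Enzymes and other factors of histone marks known to bear on silent domains gave 1 that rose and 1 that fell of 12 tested. For this list and the others in this paragraph the background was 14.3% higher and 15.5% lower among all tested genes. UBP8, a SAGA deubiquitinase of H2B, fell from 53.8 and 54.1 to 31.3 and 27.1, a log2 fold change of -0.63 (limma adjusted p = 0.00298). BDF1, a bromodomain protein that competes with Sir2 at the edges of silent regions, rose by 0.37 but gave -0.020 after control scaling, and it did not pass in 3 of 4 leave-one-out fits. Among MYST acetyltransferases, the family of Sas2, and their partners, SAS3 fell by 0.40 on the log2 scale, 0 of 3 tested rose and 2 did not pass. Among sirtuins and Sir2 partners 0 of 7 tested rose and 1 fell, SUM1, the DNA-binding partner of Hst1, by 0.38, and it too is read in the stretch where the mutant arrays disagreed. Of the 3 NatA subunits, the complex that acetylates the first residue of Sir3, NAT5 fell by 0.36 and the other two did not pass. SAS3 and SUM1 each failed 3 of 4 leave-one-out fits, and NAT5 failed all 4.

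Anchors of telomeres to the nuclear envelope and the Ku proteins gave 1 that rose and 7 that did not pass. That was 12.5% called, against 29.8% of all tested genes. ZDS2, whose product is known to bind Sir proteins, rose from 48.2 and 48.3 to 80.3 and 77.0 (log2 fold change 0.56, limma adjusted p = 0.00430), and with control scaling it gave 0.23 with an adjusted p of 0.221. Of 9 chromatin assembly genes 0 passed at an adjusted p under 0.05. In limma 1908 of all 4476 tested genes had an unadjusted p under 0.05, and so did 3 of these 9. Those with the largest moderated statistics were HIR3, of the HIR chaperone, at 0.28 (adjusted p = 0.0769) and ASF2, at 0.26 (adjusted p = 0.0948), and both were below 0 after control scaling (-0.085 and -0.029).

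The loci on which these proteins act gave few readable signals. YFR057W, a gene beside a telomere that is known to be silenced by Sir proteins, gave 0.2 and 0.7 in wild type against 1.9 and 2.2 in the mutant, at the floor of the array. Probe sets for genes of the silent mating cassettes are mostly shared with the active MAT locus. The brighter probe set shared by HMRA2, MATALPHA2 and HMLALPHA2 gave 71.4 and 115.7 for wild type, with 141.9 and 182.4 for the mutant, and the dimmer one gave 42.1 and 27.0 against 30.4 and 20.4, so the probe sets differed in direction and neither passed over all probe sets (limma adjusted p = 0.0867 and 0.371). Of the probe sets shared by MATALPHA1 and HMLALPHA1, the brighter gave 28.7 and 30.9 against 36.2 and 55.3 (0.41 on the log2 scale, with a limma adjusted p of 0.160 in the same fit), so its groups did not overlap but it did not pass, and the dimmer gave 1.7 and 1.3 against 2.6 and 3.5, at the floor. HMRA1, the a1 gene of the right cassette, was the only gene named in the table for 3 probe sets, of which 2, the brightest included, carry the suffix for sequence shared between genes. An active MATa locus holds the same a1 sequence, so signal from it and from the silent cassette cannot be told apart. The brightest gave 90.3 and 97.8 against 73.2 and 73.5 (log2 fold change -0.30, adjusted p = 0.0543 over tested genes). The dimmer ones, near the floor, gave 10.4 and 6.8 against 6.3 and 5.4 (-0.17), and 4.8 and 6.3 against 4.4 and 8.3 (0.05). HMRA1 passed after median centring (-0.33, adjusted p = 0.0358), after control scaling (-0.65, adjusted p = 0.000309) and without the stretch of probe sets (adjusted p = 0.0475). After control scaling the median of tested genes was -0.39 and 2490 of 4475 were called lower, so the smaller p is not read as stronger evidence. HMRA1 failed all 4 leave-one-out fits (log2 fold changes from -0.35 to -0.25).

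**Figure D5:**
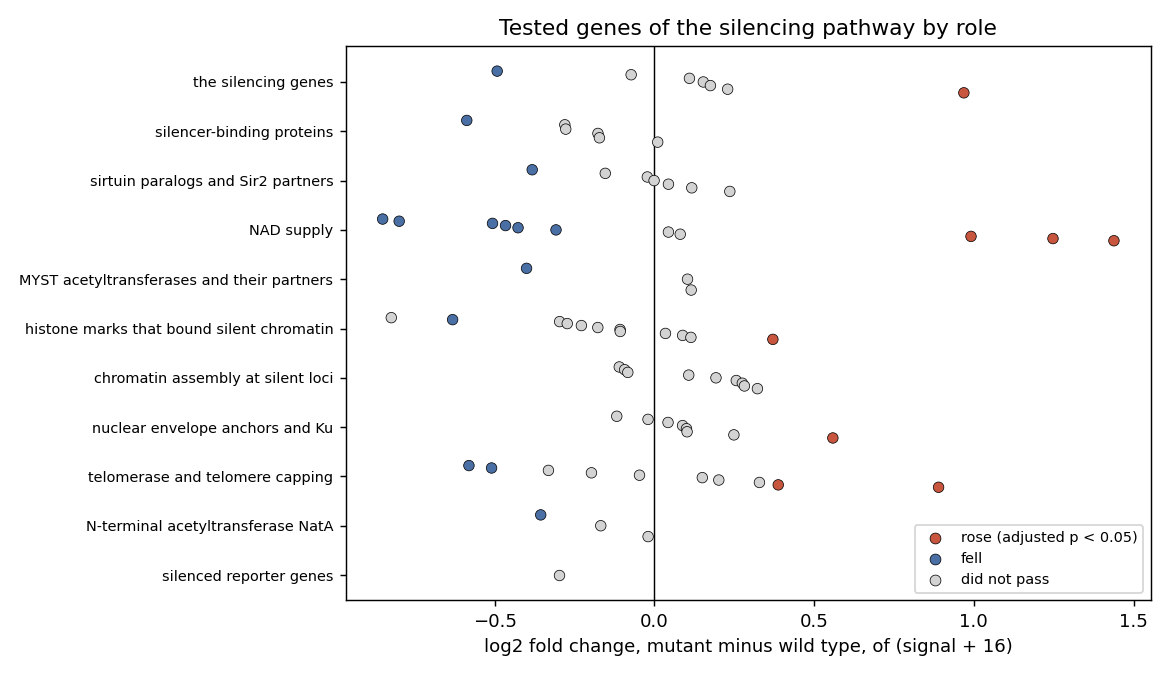
Log2 fold change, mutant minus wild type, of every tested gene in the silencing set and in the 10 lists of genes that work beside it, on the log2(signal + 16) scale; red points rose, blue points fell and grey points did not pass. The NAD supply list spans -0.85 to 1.44, and the chromatin assembly list lies between -0.11 and 0.32 with no gene called.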

How the data were processed

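Total RNA (about 20 µg per array) was labelled as biotinylated cRNA. The deposited table gives intensity, not log transformed, for each probe set. The authors used MAS5, per the submitters' processing notes, and the sources used here give neither its version nor a target for scaling. They run from 0 to 7497 and were used without further normalization. No read depth applies, and the number of arrays limits the precision. Of the probe sets, 6504 had 1 gene in the platform's table, 328 several and 2503 none; symbols were updated by gene identifier to the RefSeq table of assembly R64. No coordinates or sequences were used.

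Probe sets with 1 gene were kept when their mean log2(signal + 16) reached the 25th percentile, and were tested with limma 3.58.1 in R 4.3.3 (lmFit, eBayes with an intensity trend, 2 residual and 7.03 prior degrees of freedom), keeping the brightest per gene. A fit with no filter gave the values of dimmer genes. Intervals are 95% moderated intervals. The fit was tested on simulated data. The members, lists and tests were chosen with earlier results of these data known. Named genes were all members, their paralogs HST1, ORC1 and ORC4, and up to 4 called genes per list by moderated statistic, or 2 uncalled where none was called. Alternatives changed the offset, scaling, filter, choice of probe sets, variance model, replicate block, threshold and the arrays used. Plots used Python 3.11.15 and matplotlib 3.10.9.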

Additional observations from a re-analysis of the deposited data

How the results depend on the processing

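Among the silencing genes SAS4 was called higher and RAP1 lower with quantile normalization, median centring, offsets of 64 and 1, no filter, other choices of probe set and other variance models. The count called higher was 0 where the filter at the median or the removal of the stretch of probe sets from 5600 left SAS4 out, and RAP1 was called in both. With 1 array left out, 1 to 2 were called higher and 0 to 1 lower, 5 to 8 and 7 to 9 of the genes in the further lists, and 390 to 481 and 314 to 458 of all genes. At a threshold of 0.01 no silencing gene was called lower (0), with 6 of the listed genes lower and 367 and 273 of all genes higher and lower. At 0.1, 11 listed genes were higher. With the filter at the median 425 of all genes were higher. Scaling to the hybridization controls called 2 silencing genes lower (RAP1 and SAS2), 4 listed genes higher and 38 lower, and 205 and 2490 of all genes. There SIR1, SIR2, SIR3 and SIR4 gave -0.092, -0.19, -0.13 and -0.059, RIF1 -0.20, RIF2 -0.065, BDF1 -0.020, HIR3 -0.085 and ASF2 -0.029. The sign of HST1 also turned with quantile normalization (0.021). With 1 array left out, HST1 ranged from -0.13 to 0.087, SIR3 from -0.0036 (without wild-type replicate 2) to 0.46, SAS2 from -0.15 to 0.0076 (without mutant replicate 2), SIR4 from 0.098 to 0.22, RIF1 from 0.070 to 0.15, RIF2 from 0.011 to 0.18 and ORC1 from -0.30 to -0.046. The cause of these turns was not tested.

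The strains share only replicate numbers: deviations of same-numbered arrays correlated at 0.13 across genes. With the replicate number as a block 1766 genes were called against 1335, and among silencing genes the same RAP1 and SAS4. With the block and no filter SAS5 passed (-0.29, adjusted p = 0.0317), as did HIR3 (0.28, adjusted p = 0.0478) and HMRA1 (-0.30, adjusted p = 0.0356) with the filter. Under the block the SE was 0.120 for SAS4, 0.121 for RAP1 and 0.120 for SIR3, against 0.119, 0.111 and 0.148 without it. That fit thus hardly used the spread of each gene, and no conclusion is drawn from its added calls. Signals near the floor limit what can be read of SIR4, SAS5 and RIF2.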
